A study of Homo sapiens with 8 samples.

Results

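The transcripts described here encode 7 secreted factors that other studies have tied to amino acid stress: GDF15, FGF21, INHBE, STC1, STC2, ADM2 and ANGPTL4. They were chosen by gene symbol through their Ensembl identifiers, and are 7 of the 27776 genes listed in at least 1 of 2 expression tables. All 7 were among the 25431 genes listed for 769-P, and 6 were among the 24190 listed for CAKI-1, where FGF21 was not listed. The libraries came from 769-P and CAKI-1, both established human renal cell carcinoma (RCC) lines, cultured for 16 hours with or without branched-chain amino acids (BCAA), that is isoleucine and leucine at 0.38 mM each with valine at 0.17 mM. RNA sequencing gave 2 libraries in each of the 4 conditions, 8 in all. The routine media differed, since 769-P was grown in RPMI 1640 and CAKI-1 in MEM. The methods describe BCAA-depleted medium as reconstituted amino acid-free RPMI 1640 powder with dialyzed serum, and which other amino acids were present during the 16 hours is not given in the sources used here. Nothing in the labels says that the 2 libraries of a condition came from separate cultures, so p-values measure only the spread between these libraries, which may be technical.

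Cells short of an amino acid accumulate uncharged transfer RNA, which activates the kinase GCN2. Phosphorylation of the initiation factor eIF2 then lowers general protein synthesis while raising translation of the transcription factor ATF4. ATF4 and its partners of the C/EBP family switch on amino acid synthesis and transport genes, and several genes for circulating factors. GDF15 is a distant member of the TGF-beta family that lowers appetite through the brain receptor GFRAL. FGF21 is a liver hormone of starvation that signals through FGF receptors with the co-receptor KLB. INHBE encodes the subunit of activin E, made mostly by liver, and STC1 and STC2 are stanniocalcins, which inhibit the proteases PAPPA and PAPPA2. ADM2 (intermedin) is a peptide of the adrenomedullin family that acts on CALCRL with a RAMP protein, and ANGPTL4 inhibits lipoprotein lipase.

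The labelled tissue was checked against its markers. Of 8 renal epithelial markers, CA9 was not listed in either table, PAX2 not in that of CAKI-1, and KRT19 had only 1 to 14 reads in 769-P. In each line 6 of the 8 markers had over 100 reads in every library, among them PAX8, KRT8 and VIM. Their summed level was 2655 to 2794 RPM (reads per 1000000 reads on listed genes) with BCAA and 2816 to 2896 without in 769-P, and 2150 to 2271 with and 3109 to 3253 without in CAKI-1, lower with BCAA in both lines as were most of the secreted factors. VIM had the most reads of these markers in every library, 72094 to 111391 in 769-P and 66423 to 109536 in CAKI-1, so the sums mainly reflect VIM. Of the markers tested, 3 rose and 2 fell in 769-P (PAX8 by 0.64 on the log2 scale), beside 20.3% and 18.2% of all genes. In CAKI-1, 3 of 6 fell (VIM by 0.65), beside 9.05% of all genes. The part of these markers in the results was not tested. The summed hepatocyte markers lay between 19.7 and 28.6 RPM in 769-P and between 7.005 and 8.365 in CAKI-1. Nearly all of this was SERPINA1, and ALB never had more than 7 reads. In 769-P that sum was 26.7 to 28.6 with BCAA and 19.7 to 20.15 without, the opposite direction from most of the secreted factors, and SERPINA1 was the 1 hepatocyte marker of 4 tested that was called there, by 0.46. The summed endothelial and blood cell markers stayed at or below 0.288 RPM in every library, and no member of either list passed the test in 769-P (1 and 2 tested) or CAKI-1 (2 and 2 tested). Between 30979773 and 64256834 reads lay on the listed genes of a library. In 769-P both libraries with BCAA were deeper (64256834 and 55829324 reads) than both without (39062721 and 40130258), so depth and condition go together there. After thinning to the smallest of all 8 libraries (30979773 reads), GDF15, INHBE, STC2, ADM2 and ANGPTL4 were still called in 769-P. In bulk RNA, fewer cells of a kind and less RNA per cell cannot be told apart.

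A promoter sequence was available in the RefSeq table (GRCh38.p14) for 5 of the 7 genes, GDF15, FGF21, STC2, ADM2 and ANGPTL4. The 250 bases before each annotated start were searched on both strands for the C/EBP-ATF element TGATGNAA, through which ATF4 acts on many stress genes, the ATF site TGACGT, and the hypoxia response core ACGTG. The stretches below are shown because FGF21 held the only C/EBP-ATF element among the 5, ANGPTL4 the only hypoxia core, and ADM2 none of the 3. Capitals mark the element. Each is the longest stretch of its window free of annotated exons, a rule that removed the whole STC2 window and nearly all of the GDF15 window.
FGF21 (chr19:48755391-48755523, plus strand): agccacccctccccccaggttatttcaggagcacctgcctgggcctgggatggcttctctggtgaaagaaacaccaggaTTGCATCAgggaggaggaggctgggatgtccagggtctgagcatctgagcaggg
ANGPTL4 (chr19:8363905-8364150, plus strand): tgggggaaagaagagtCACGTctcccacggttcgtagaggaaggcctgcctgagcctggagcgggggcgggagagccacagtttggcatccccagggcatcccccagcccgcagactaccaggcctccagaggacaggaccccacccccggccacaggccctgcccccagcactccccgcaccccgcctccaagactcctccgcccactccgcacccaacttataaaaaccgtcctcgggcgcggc
ADM2 (chr22:50481293-50481542, plus strand): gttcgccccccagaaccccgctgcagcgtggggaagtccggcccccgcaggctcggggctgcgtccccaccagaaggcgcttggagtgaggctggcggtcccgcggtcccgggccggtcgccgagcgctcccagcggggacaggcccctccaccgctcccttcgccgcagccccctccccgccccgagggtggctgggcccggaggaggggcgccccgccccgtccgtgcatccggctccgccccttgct

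In FGF21 the element read TTGCATCA on the printed strand, beginning 54 bases before the start. Across all windows of this length in the table, 1104 of 35093 (3.15%) held TGATGNAA, 7.10% held TGACGT and 18.5% held ACGTG. Counted by gene, 4 of 21 genes of the amino acid response held TGATGNAA, beside 1061 of 27305 genes in all (3.89%), and 4 of 21 held ACGTG, beside 21.7%. ADM2 was the richest of the printed stretches in G and C, at 78.8%, against 60.2% in FGF21 and 68.3% in ANGPTL4. A match is a description of letters, and its absence says nothing about a factor's binding there or elsewhere. In GENCODE 29 (GRCh38), GDF15 lies at chr19:18374731-18389176, STC2 at chr5:173314713-173329503 and INHBE at chr12:57452323-57459280. All 7 genes are protein coding, and no exon of another gene overlapped theirs except for 1 base of ANGPTL4 shared with the antisense gene RAB11B-AS1.

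In 769-P, 6 of the 7 factors fell with BCAA and none rose, by limma with Benjamini-Hochberg adjustment over all 22391 genes tested at 0.05. Over all genes tested, 18.2% were called lower and 20.3% higher (4069 and 4536 genes, against 4767 lower and 4044 higher after median centring). The levels without BCAA were from 3.09-fold (ADM2) to 10.4-fold (INHBE) those with BCAA on the log2(value + 1) scale, and the remaining factor, STC1, was the only one with its higher level in BCAA. The median log2 fold change of the 7 (with BCAA over without) was -2.68, beside -0.02 for all genes. It was -1.76 with FGF21, which had no reads in BCAA, set at its bound.

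GDF15 had the highest level of the 7 per kilobase of exon in 769-P. Its values, which are reads divided by a size factor for each library, were 6552 and 6289 with BCAA and 21652 and 21962 without. All libraries without BCAA lay above both with BCAA, and the spread within a pair was small beside the gap between pairs. The fold change was -1.76 ± 0.04 (log2, SE; adjusted p = 6.87e-11), a level without BCAA 3.40-fold that with it. GDF15 ranked 382 by size among the 4069 genes called lower.

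INHBE had the largest change of the 7 on the log2(value + 1) scale, at a far lower level. It had 25 and 16 reads with BCAA and 152 and 136 without, which are values of 19.0 and 13.7 against 188.8 and 166.3. The pairs did not overlap, and the change was -3.38 ± 0.29 (adjusted p = 1.93e-06), which ranked 33 among the genes called lower. FGF21 was close to the limit of detection. It had 0 reads in each library with BCAA, and 6 and 4 reads without. With 0.1 added to the values in place of 1, its change was larger than that of INHBE (-5.94 against -3.45). Set against a floor of 3 reads per library with BCAA, FGF21 was 2.55-fold lower, with its 6 and 4 reads taken as exact. Its adjusted p of 0.0194 passed the threshold, but the call was lost when reads were thinned to the smallest library (adjusted p = 0.0666) and when any 1 of the 4 libraries was left out (adjusted p from 0.0612 to 0.0860). Counting error alone limits these few reads.

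The 2 stanniocalcins went apart. STC2 had values of 147.1 and 129.98 with BCAA and 906.7 and 1040.7 without. Both BCAA libraries were low and the groups were far apart, with a change of -2.80 ± 0.12 (adjusted p = 5.79e-09). STC1 had 131.2 and 131.7 with BCAA and 90.7 and 95.4 without, so that here the BCAA libraries were the higher pair. Its log2 fold change of 0.49 (95% confidence interval 0.07 to 0.92) did not pass the test after adjustment (adjusted p = 0.0661). The STC1 call depended on the processing, since it passed with edgeR on the recovered reads (adjusted p = 0.0474), with only genes of mean value 10 or more tested (0.0477) and in 1 fit over 8 libraries (0.00664).

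ADM2 and ANGPTL4, the vascular and lipid factors of the group, both fell in 769-P. ADM2 values were 1863 and 1781 with BCAA and 5637 and 5627 without. The 2 libraries without BCAA were almost equal, and the change was -1.63 ± 0.05 (adjusted p = 5.88e-10). ANGPTL4 values were 242.6 and 164.2 with BCAA and 1168 and 1422 without. Its replicates differed more than those of ADM2, but the groups stayed far apart, at -2.68 ± 0.16 (adjusted p = 8.55e-08).

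**Figure D1:**
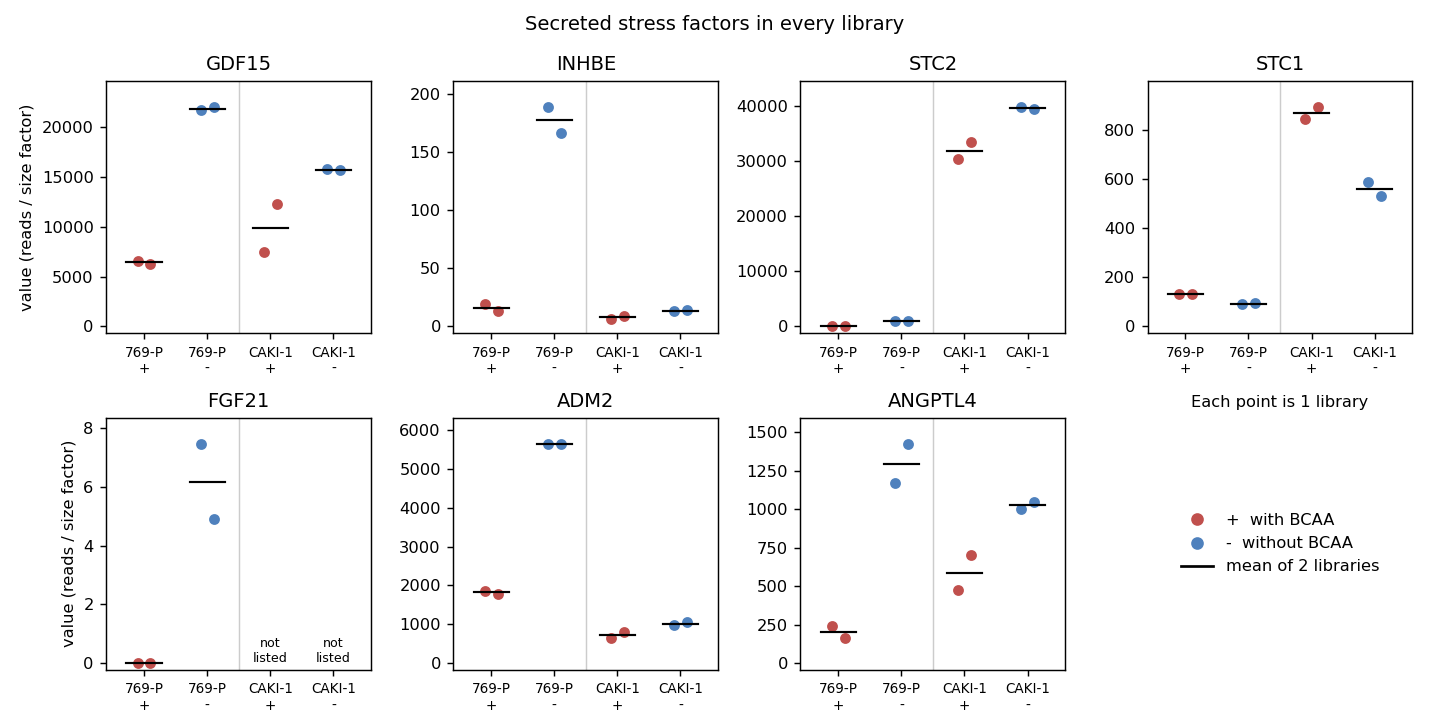
Values of the 7 factors in every library, as reads divided by the size factor of the library, on linear axes that differ between panels. Each point is 1 library, red with BCAA and blue without, and bars are means of 2 libraries. In 769-P the blue points lie above the red ones in every panel except STC1, and in CAKI-1 the STC1 points with BCAA are again the higher pair, while the GDF15 libraries with BCAA lie apart, at 7490 and 12232.

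In CAKI-1, GDF15, STC2, ADM2 and ANGPTL4 fell with BCAA, STC1 rose, and INHBE did not pass the test. These were 4 of the 6 listed factors called lower, beside 9.05% of the 21347 genes tested, and 1 called higher, beside 10.8%. The split of all calls depended on the scaling, with 2312 genes higher and 1931 lower here and 1833 higher and 2364 lower after median centring. The falls were small, with levels without BCAA from 1.24-fold (STC2) to 1.78-fold (ANGPTL4) those with it. The median of the 6 log2 fold changes was -0.60, beside -0.01 for all genes. With any 1 of the 4 CAKI-1 libraries left out, none of the 6 factors was called, and no gene in the table was called at all, so the CAKI-1 calls rest on all 4 libraries together.

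GDF15 in CAKI-1 had values of 7490 and 12232 with BCAA and 15747 and 15661 without. The libraries without BCAA were nearly equal, while those with it differed widely, although both lay below. The change was -0.71 ± 0.16 (adjusted p = 0.00858). It was -0.36 without the first BCAA library and -1.07 without the second, and it also lost its call with DESeq2 (adjusted p = 0.138), after thinning (0.0539) and after quantile normalization (0.115). ANGPTL4 values were 471.8 and 699.8 with BCAA and 1004 and 1049 without, again with the wider spread in BCAA. Its change was -0.84 ± 0.15 (adjusted p = 0.00223), and was -0.55 without the first BCAA library and -1.12 without the second. ADM2 values were 651.8 and 807.9 with BCAA and 979.9 and 1054 without, a change of -0.49 ± 0.11 (adjusted p = 0.00806), which was -0.33 without the first BCAA library. In each of these genes the first CAKI-1 library with BCAA was the lowest of the 4.

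STC2 had most of the factors' reads in CAKI-1. Its values were 30356 and 33522 with BCAA and 39816 and 39549 without. The groups did not overlap, but the change was the smallest of those called, at -0.31 ± 0.06 (adjusted p = 0.00367). STC2 and ADM2 lost their calls after quantile normalization (adjusted p = 0.0644 and 0.05165). STC1 values were 846.4 and 892.0 with BCAA and 589.2 and 531.5 without. Here both BCAA libraries were clearly the higher ones, and the change was 0.63 ± 0.09 (adjusted p = 7.70e-04), so that STC1 and STC2 were called in opposite directions in these cells. INHBE had 7 and 11 reads with BCAA and 14 and 11 without, with a log2 fold change of -0.73 (95% confidence interval -1.89 to 0.44; adjusted p = 0.400). Its normalized values of 6.81 and 9.15 with BCAA and 13.3 and 14.2 without did not overlap. At this depth the interval reaches from a clear fall to a rise, and no difference could be detected.

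**Figure D2:**
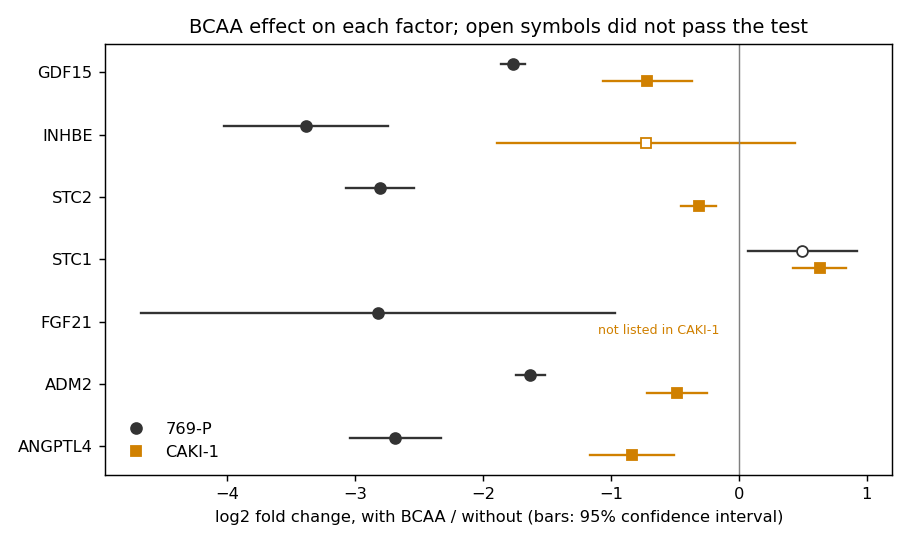
Log2 fold change (with BCAA over without) of each factor in 769-P (dark circles) and CAKI-1 (orange squares), with 95% confidence intervals from limma, and open symbols where the test was not passed. The 769-P estimates lie further below 0 than those of CAKI-1 for GDF15, INHBE, STC2, ADM2 and ANGPTL4, and the 2 estimates for STC1 lie close together above 0. The FGF21 estimate of -2.82 depends on the pseudocount, since its reads with BCAA are 0.

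The BCAA effect differed between the lines for 5 of the 6 factors tested in both, each being more negative in 769-P. A limma model of all 8 libraries, through its interaction, called 10.1% of 19406 genes more negative in 769-P and 10.9% more positive. The difference was -2.65 ± 0.57 for INHBE (adjusted p = 0.00420) and -2.49 ± 0.11 for STC2 (adjusted p = 6.69e-09). The difference was -1.85 ± 0.26 for ANGPTL4 (adjusted p = 2.09e-04), -1.14 ± 0.12 for ADM2 (adjusted p = 2.47e-05) and -1.05 ± 0.20 for GDF15 (adjusted p = 0.00226). The GDF15 difference was -0.70 without the second CAKI-1 library with BCAA and -1.40 without the first, and was called in both cases. For STC1 the difference was -0.14 (95% confidence interval -0.53 to 0.25; adjusted p = 0.651). This interval allows a difference of about the size of the 769-P value itself, so that an equal effect is not shown. The lines differ in their routine medium as well as in their origin, and these cannot be told apart here.

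The order of the levels per kilobase of exon changed with the line and with BCAA. In 769-P with BCAA the mean values per kilobase were 3077 ± 89.1 for GDF15 (SD, n = 2), 426.1 for ADM2, 81.9 for ANGPTL4, 31.7 for STC1, 22.6 for STC2, 5.41 for INHBE and 0 for FGF21. Without BCAA, STC2 (158.9) and INHBE (58.9) stood above STC1 (22.4), while GDF15, ADM2 and ANGPTL4 kept the first 3 places and FGF21 (4.69) was last. No neighbours in either order had overlapping libraries. In CAKI-1 without BCAA, GDF15 (7525) stood above STC2 (6476), ANGPTL4 (413.5), ADM2 (237.8), STC1 (135.1) and INHBE (4.55). With BCAA, STC2 (5212 ± 365) and GDF15 (4725 ± 1607) could not be ordered, since their libraries overlapped, and the same held for ANGPTL4 (236.0) and STC1 (209.5). ADM2 (170.7) stood below STC1 with BCAA and above it without, with no overlap of libraries in either condition. No order of genes was tested, and the tables of the 2 lines were normalized separately.

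Summed over the factors, these genes had 183.8 and 178.3 RPM in 769-P with BCAA, and 611.1 and 617.8 without. The sum without BCAA was 3.39-fold that with it. In CAKI-1 the sums were 1011 and 1230 with BCAA and 1471 and 1451 without, a ratio of 1.304. With 2 libraries against 2, an exact permutation test cannot give a p below 0.333, so these sums were not tested. GDF15 made up between 72.4% and 73.9% of the reads in all 4 libraries of 769-P, and ADM2 between 18.6% and 20.9%. In CAKI-1, STC2 took from 68.4% to 76.2% and GDF15 from 18.8% to 27.1%.

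**Figure D3:**
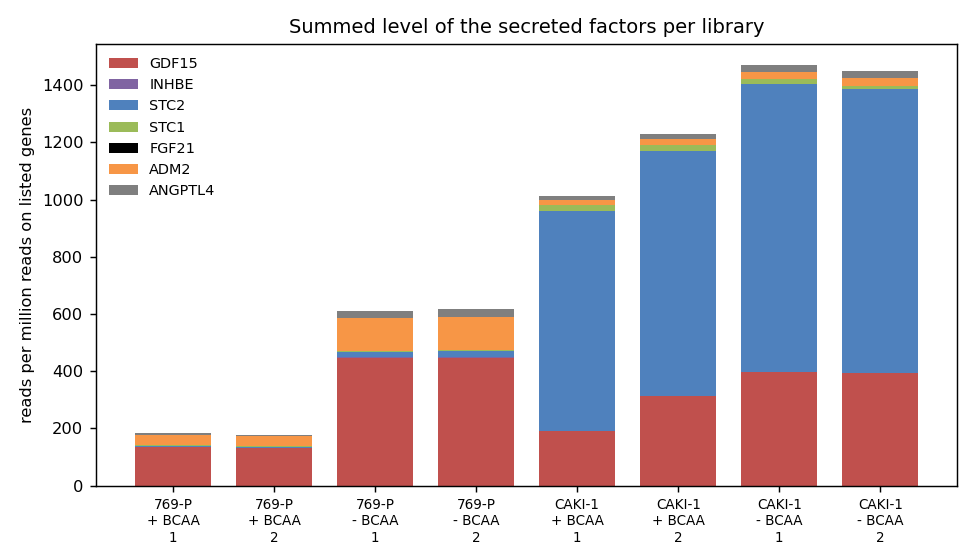
Summed level of the 7 factors in RPM, counted on listed genes and stacked by gene, for each of the 8 libraries. In 769-P the bars are mostly GDF15 and stand at 183.8 and 178.3 with BCAA and at 611.1 and 617.8 without, and in CAKI-1 they are mostly STC2. INHBE and FGF21 are too few to be seen at this scale.

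Receptors and targets of the factors were taken from a list of 22 genes. Of these, 15 were tested in 769-P, where 3 were higher and 5 lower with BCAA, and 17 in CAKI-1, where 4 were higher and 1 lower. Over all genes the shares were 20.3% higher and 18.2% lower in 769-P and 10.8% and 9.05% in CAKI-1, so that the share higher in 769-P was that of all genes. The median log2 fold changes were -0.01 and 0.29. GFRAL, the receptor of GDF15, was not listed in either table, and RET, its signalling partner, had at most 23 reads in any library. Among the FGF receptors, FGFR4 had a mean value in 769-P of 16414 ± 80.5 (SD, n = 2) with BCAA and 10085 ± 208 without. FGFR4 rose with BCAA in both lines, by 0.70 in 769-P (adjusted p = 6.22e-08) and 0.75 in CAKI-1 (adjusted p = 1.47e-04). FGFR3 also rose in both, by 0.41 (adjusted p = 1.66e-04) and 1.36 (adjusted p = 0.00604), while FGFR1 fell in 769-P by 0.45 on the log2 scale (adjusted p = 7.67e-06). The co-receptor KLB rose in 769-P, by 1.76 (adjusted p = 0.0135) on between 7 and 88 reads, and FGFR2 in CAKI-1, by 1.99 (adjusted p = 0.0280) on between 3 and 24 reads. KLB in CAKI-1 had at most 8 reads and a value of 1.297, with a 95% confidence interval from -0.81 to 3.40. The KLB call in 769-P was lost when any 1 of the 4 libraries was left out, with values from 1.07 (without the first library lacking BCAA) to 2.46 (without the second), and that of FGFR3 when either BCAA library was. The FGFR4 effects differed between the lines by -0.05 (95% confidence interval -0.25 to 0.16).

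The stanniocalcin target PAPPA2, a protease that frees insulin-like growth factors from their binding proteins, also fell in both lines. Its mean value in 769-P was 1104 ± 188 with BCAA and 6333 ± 37.4 without, a change of -2.53 ± 0.09 (adjusted p = 1.10e-09). In CAKI-1 it was 165.3 ± 2.69 and 292.0 ± 11.1, a change of -0.82 ± 0.14 (adjusted p = 0.00193). The change of PAPPA2 differed between the lines by -1.71 (adjusted p = 3.09e-06). PAPPA itself fell in 769-P at a low level (-0.98, adjusted p = 0.0445), and in CAKI-1 had a value of -0.37 (adjusted p = 0.0803). IGFBP4, a substrate of PAPPA, rose in CAKI-1 by 0.41 (adjusted p = 0.0246) and was at -0.18 in 769-P (adjusted p = 0.775). The activin receptor ACVR2B (-0.98, adjusted p = 1.53e-04) and the bone morphogenetic protein receptor BMPR2 (-0.17, adjusted p = 0.0127) fell in 769-P, and neither passed in CAKI-1. The calls of PAPPA and BMPR2 in 769-P were lost without any 1 library, and that of ACVR2B without either BCAA library. The type I receptor ACVR1B (-0.01 and -0.11) and ACVR2A (0.11 and 0.08) passed in neither line. CALCRL, which binds ADM2, had values of -0.20 and 0.11 in the 2 lines and passed in neither, and no RAMP gene was listed in 769-P. In CAKI-1, RAMP1 (0.29, on 11 to 46 reads) and RAMP2 (1.19, on at most 5 reads) did not pass, nor did the activin receptor ACVR1C (1.72, on at most 4 reads). LPL, the enzyme that ANGPTL4 inhibits, was listed only in CAKI-1, with at most 5 reads, and GPIHBP1, which anchors it to capillaries, had at most 15 reads in 769-P and a value of 0.61 (adjusted p = 0.456).

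Close relatives of the factors were followed in a list of 22 genes. Of these, 15 were tested in 769-P, with 2 higher and 4 lower and a median of -0.62, and 12 in CAKI-1, with 3 higher, 0 lower and a median of -0.01, beside the same shares over all genes. ADM, the paralog of ADM2 and a vasodilator, fell in 769-P from a mean value of 4147 ± 261 without BCAA to 666.1 ± 52.0 with it, by 2.64 on the log2 scale (adjusted p = 2.46e-10). In CAKI-1 ADM had a value of -0.15 (adjusted p = 0.777), with 197 reads in one BCAA library and 555 in the other. INHBA, the activin A subunit, fell in 769-P by 0.81 on the log2 scale (adjusted p = 1.46e-06), and had a mean value of 49214 with BCAA and 49818 without in CAKI-1. CALCB (-3.85) and INHA (-1.82) fell in 769-P on at most 21 and 13 reads, and INHA lost its call without any 1 library and CALCB without any 1 except the first with BCAA. GDF11 rose by 1.38 in 769-P and 0.79 in CAKI-1, and TGFB3 by 2.67 and 1.36, a 769-P call that was lost without either BCAA library.

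The amino acid response was followed through 25 genes, chosen with earlier results of these data known. In 769-P, 22 of the 25 fell with BCAA, beside 18.2% of all genes tested. Of the rest, 1 (ATF5) rose, beside 20.3%, and 2 did not pass, and the median of the 25 was -2.17. The largest falls were in CHAC1, a glutathione-degrading enzyme (-3.74), PCK2, mitochondrial phosphoenolpyruvate carboxykinase (-3.23), DDIT4, an inhibitor of mTORC1 (-3.15), and NUPR1, a stress-induced chromatin protein (-3.09). ATF4 itself fell by 0.97 on the log2 scale. In CAKI-1, 11 fell, beside 9.05% of all genes, and 11 did not pass, with a median of -0.26. The other 3 rose, a share near the 10.8% of all genes. The largest falls there were in DDIT3, the factor CHOP (-1.12), PPP1R15A, which directs eIF2 dephosphorylation (-0.96), TRIB3, a pseudokinase (-0.78), and ATF3 (-0.48). The effect in 769-P was more negative than in CAKI-1 for 22 of the 25 genes, beside 10.1% of all genes. It was more positive for 1, beside 10.9%.

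**Figure D4:**
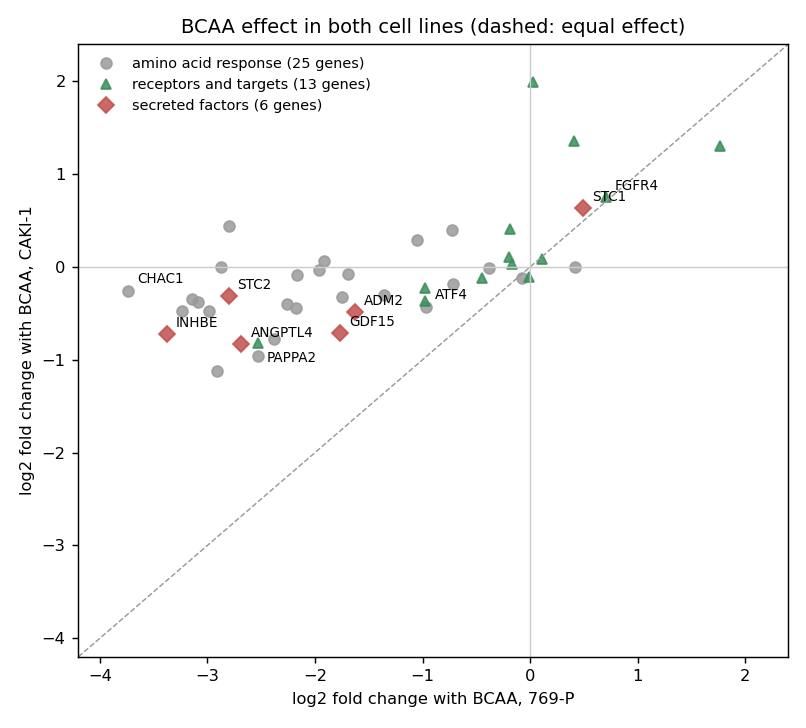
Log2 fold change with BCAA in 769-P (horizontal) against CAKI-1 (vertical) for the 6 factors tested in both lines (red diamonds), 25 amino acid response genes (grey circles) and 13 receptors and targets (green triangles), with a dashed line where both effects are equal. GDF15, ADM2, ANGPTL4, STC2 and INHBE lie above the dashed line, to the left of 0, and STC1 lies close to it at 0.49 and 0.63.

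Other programs known to control some of the factors were counted in the same way. Over all genes tested, 18.2% were called lower and 20.3% higher in 769-P, and 9.05% and 10.8% in CAKI-1. Of 12 hypoxia genes, which share control with ANGPTL4 and VEGFA, 11 were tested in each line. In 769-P, 7 fell and 2 rose, with a median of -0.39, and in CAKI-1, 3 fell and 2 rose, with a median of -0.09. NDRG1, a stress gene, fell in both lines, by 2.98 and 1.16 on the log2 scale, while LDHA rose in both (0.48 and 0.77). Of 12 targets of p53, which can raise GDF15, 9 fell and 2 rose in 769-P, with a median of -0.24, and 8 fell and 0 rose in CAKI-1, with a median of -0.33. CDKN1A, the cell cycle inhibitor p21, fell by 0.51 on the log2 scale in each. PHLDA3 fell by 0.57 in 769-P and 0.37 in CAKI-1, and BTG2 by 0.23 and 0.47. In 769-P the BTG2 call was lost without any 1 library and that of PHLDA3 without the second library lacking BCAA. Of the PPAR targets, a family of fatty acid genes to which ANGPTL4 and FGF21 also belong, 2 of 8 tested fell in 769-P and 2 of 9 in CAKI-1, beside 18.2% and 9.05% of all genes, with medians of -0.01 and -0.08. They were PLIN2, a lipid droplet protein, and CPT1A, which brings fatty acids into mitochondria, in both lines.

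The genes whose profiles over the 8 libraries were nearest to each factor were found among the 14371 genes whose mean reached 10 in each table, by the root mean square difference of log2 values centred within each line. Nearest to GDF15 was VGF, a secreted neuropeptide precursor, at 0.1001 log2 units, and then ARHGEF2 (0.11). ADM2 lay nearest to GTPBP2 (0.06), and STC2 to KCNH1, a potassium channel (0.08). The nearest to INHBE was EPAS1, the hypoxia factor HIF2A, at 0.14, followed by the amino acid response gene PCK2 (0.16). INHBE had only between 7 and 14 reads in a CAKI-1 library, so counting error limits this order. ANGPTL4 was nearest to KDM7A, a histone demethylase (0.16), and then to PAPPA2 (0.17). The smallest distance was that of STC1, to NCLN at 0.03, followed by CD320 (0.05). The measure is absolute, so small changes such as those of STC1 favour small distances. Both genes rose with BCAA in each line, which so small a distance to STC1 requires. FGF21 was below the level required. These likenesses are descriptions over 8 libraries from 4 conditions and were not tested.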

How the data were processed

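RNA of 769-P and CAKI-1 cells was sequenced in 8 libraries, grouped by the cell line and treatment in their labels. For each line the authors deposited 1 table of signal values, each a gene's reads divided by its library's size factor and not scaled for length. The submitters' processing notes name Trim Galore, TopHat2 2.1.0, SAMtools 1.3.1, HTSeq 0.6.0, DESeq, DESeq2 and hg38. The annotation and the strand setting are not given in the sources used here. Every value (100%) was a whole multiple of 1 read within a tolerance of 0.001, and reads were recovered from it. Symbols came from GENCODE 29, for 25032 and 23881 identifiers.

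The test was limma 3.58.1 (R 4.3.3; lmFit, then eBayes with a trend) within each line, on log2(value + 1). Genes averaging under 1 were left out. Calls were made at 0.05 after Benjamini-Hochberg adjustment, whatever the fold. The difference between lines was the interaction term over 8 libraries. Fold changes understate those of low genes. edgeR 4.0.16 on the recovered reads called 4874 genes higher and 3920 lower in 769-P, 2237 and 2160 in CAKI-1 and 2287 and 1982 in the difference, and DESeq2 1.42.0 was a further alternative. Scripts were tested on simulated data. The 7 factors and all lists (amino acid response, receptors and targets, paralogs, other secreted growth factors, ER folding response, hypoxia, p53 targets, PPAR targets, and renal, hepatocyte, endothelial and blood cell markers) were chosen with earlier results of these data known. Genes named are the factors, tested receptors and targets, up to 4 of the largest called changes per list and line, and the 2 nearest profiles per factor. ATF4, ATF5, INHBA and the cell markers fall outside this rule and were chosen after their values were seen. Intervals and read floors cover counting error or the spread between libraries only. Other scalings, filters, pseudocounts, thresholds and left-out libraries were tried as alternatives. A floor of 3 reads per library was used for bounds.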

Additional observations from a re-analysis of the deposited data

Results flagged for a closer look

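The named genes below had a BCAA effect that differed between 769-P and CAKI-1 by the interaction term of the limma fit (adjusted p under 0.05), and each value is the 769-P log2 effect minus the CAKI-1 log2 effect. Of the secreted factors these were GDF15 (-1.05), INHBE (-2.65), STC2 (-2.49), ADM2 (-1.14) and ANGPTL4 (-1.85). INHBE in CAKI-1 had at most 14 reads.

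In the amino acid response the differences were ATF3 (-2.51), DDIT3 (-1.79), TRIB3 (-1.60), CHAC1 (-3.48), NUPR1 (-2.71), DDIT4 (-2.80), PCK2 (-2.76) and PPP1R15A (-1.58). Receptors and targets with a difference were FGFR1 (-0.33), FGFR3 (-0.95), ACVR2B (-0.76) and PAPPA2 (-1.71). Among relatives of the factors they were ADM (-2.48), GDF11 (0.59) and TGFB2 (-0.92), which in 769-P had only between 11 and 14 reads. Among other secreted factors they were VEGFA (-2.81), IL6 (-3.20), CXCL8 (-1.16), EDN1 (-3.11) and SPP1 (0.95). EDN1 was called in opposite directions in the 2 lines.

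In the ER folding response the differences were SDF2L1 (0.66), HERPUD1 (-1.05), PDIA4 (0.64), MANF (0.70), SEL1L (-0.94) and XBP1 (-1.48). The hypoxia genes with a difference were EGLN3 (-1.70), NDRG1 (-1.83), P4HA1 (-0.81), LDHA (-0.29) and BHLHE40 (-0.64). EGLN3 had only between 13 and 50 reads in CAKI-1. The p53 targets were BBC3 (-0.82) and TP53I3 (-0.36), and the PPAR targets were CPT1A (-0.34) and PLIN2 (-1.07). Of the genes with the nearest profiles they were VGF (-1.06), ARHGEF2 (-0.96), EPAS1 (-2.50), KCNH1 (-2.30), SLFN5 (-2.27), GTPBP2 (-0.98), DOCK11 (-1.30) and KDM7A (-1.52). No group of libraries was large enough to look for a single library far from the rest, and the cause of these differences was not tested.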

How the results depend on the processing

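In 769-P the calls of GDF15, INHBE, STC2, ADM2 and ANGPTL4 held under all 19 alternatives, and the 5 differences between lines under all 22. The members' median there was -1.76 with a pseudocount of 5, -2.22 with only genes of mean value 10 or more and in 1 fit over 8 libraries, and -2.20 after thinning, since FGF21 shrank or dropped out by construction. With that filter, in that fit and with edgeR, 1 factor (STC1) was called higher. In CAKI-1, 1 factor was called lower after quantile normalization, and 0 lower and 0 higher when a fold of 2 was also required. Requiring 2-fold left 0 amino acid response genes higher in either line or in the difference, and 1 lower in CAKI-1. At adjusted p under 0.01, 0 were higher in the difference. Their 769-P median was -2.22 after median centring.

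With 1 library left out, the single library of a condition was assumed to vary like the others. In 769-P this gave 5 factors lower in each case and 0 higher, medians from -2.82 to -2.40, 21 to 22 amino acid response genes lower and 0 to 1 higher, and medians from -2.22 to -2.11. In CAKI-1 it gave 0 factors and 0 amino acid response genes called in either direction, beside 0 of all genes, with medians of the factors from -0.78 to -0.35 and of the amino acid response from -0.38 to -0.18. In the difference, 5 factors were lower and 0 higher in each case, 22 to 23 amino acid response genes were lower and 0 to 1 higher. All-gene counts in 769-P fell to between 1493 and 2211 higher and 1354 and 1510 lower.

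Near-zero effects changed sign. ACVR1B in 769-P was 0.00341 after library-size scaling, 0.0109 with TMM and 0.00892 with edgeR, and FGFR2 was -0.0258 after median centring and -0.0503 after thinning. BMPR2 in CAKI-1 was -2.33e-04 after quantile normalization and -0.00784 after median centring. With 1 library left out, the 769-P ranges were -0.58 to 1.65 for RET, -0.49 to 0.55 for FGFR2, -0.0609 to 0.0339 for ACVR1B, -0.0685 to 0.29 for ACVR2A, -0.64 to 0.28 for IGFBP4 and -0.0334 to 0.19 for SPP1. In CAKI-1 they were -0.15 to 2.74 for KLB, -0.0420 to 0.11 for BMPR2, -0.12 to 0.33 for CALCRL, -0.59 to 1.16 for RAMP1, -0.78 to 0.48 for ADM, -1.89 to 0.69 for INHA and -0.43 to 0.21 for CXCL8.

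A fold of 2 left 989 genes higher and 971 lower in 769-P, and 303 and 145 in CAKI-1, and quantile normalization left 1390 and 1341 in CAKI-1. An adjusted p under 0.01 left 1417 and 1012 in CAKI-1 and 1224 and 1155 in the difference, where a fold of 2 left 365 and 445. The labels do not say whether same-numbered libraries were handled as pairs. Their deviations from the condition means had correlations of only -0.0884 in 769-P and 0.0615 in CAKI-1. With 2 libraries per condition, this shows no shared deviation but cannot settle how the libraries were handled. With the replicate number as a block, 6 factors were lower in 769-P (median -2.68), 4 were lower and 1 higher in CAKI-1 (median -0.60) and 5 differed. The block gave 4692 genes higher and 4233 lower in 769-P and 2133 and 1803 in CAKI-1. Of the named genes, PDK1 and CPT1A in CAKI-1 and the differences of FGFR3 and TP53I3 no longer passed, and PAPPA in CAKI-1 did. The block changed no other call of a named gene among 211 results. In CAKI-1 it gave 12 amino acid response genes lower, beside 11 without it. Few reads limit FGF21, and INHBE in CAKI-1, for which DESeq2 gave no adjusted p.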

Other observations

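Among 20 other secreted growth factors and cytokines, 12 fell and 4 rose with BCAA in 769-P, beside 18.2% and 20.3% of all genes. Of the same 20, 3 fell and 5 rose in CAKI-1, beside 9.05% and 10.8% of all genes. Their medians on the log2 scale were -0.42 in 769-P and -0.05 in CAKI-1. VEGFA, the endothelial growth factor, had a mean value of 2577 ± 62.4 (SD, n = 2) with BCAA and 24207 ± 89.7 without in 769-P, a change of -3.23, and a change of -0.42 in CAKI-1. The cytokine IL6 fell in both lines, by 3.74 on the log2 scale in 769-P, where it had at most 84 reads, and by 0.54 in CAKI-1. EDN1, the vasoconstrictor endothelin, was called in opposite directions, at -2.09 in 769-P and 1.02 in CAKI-1. HBEGF, an EGF receptor ligand, rose in both (0.93 and 0.73), as did IGFBP3, which binds insulin-like growth factors (0.58 and 0.71). In 769-P the IL6 call was lost without either BCAA library and the HBEGF call without the first, and in CAKI-1 no call held with 1 library left out.

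Chaperones and other genes of the ER folding response were split. In 769-P, 7 of 14 rose and 6 fell, with a median of 0.04, and in CAKI-1, 4 rose and 2 fell, with a median of 0.15. Over all genes, 20.3% rose and 18.2% fell in 769-P, and 10.8% and 9.05% in CAKI-1. SDF2L1 rose by 1.29 in 769-P and 0.62 in CAKI-1, and MANF, itself secreted under ER stress, by 1.11 and 0.41. XBP1, the transcription factor of the ER response, fell in 769-P (-1.44), as did HERPUD1 (-1.28). DNAJB9, an ER co-chaperone, fell by 0.78 on the log2 scale in 769-P and 0.50 in CAKI-1. The SDF2L1 call in 769-P was lost without either BCAA library.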
